A study of Mus musculus with 6 samples.

Results

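The unfolded protein response and the machinery that carries secretory proteins out of the endoplasmic reticulum (ER) were examined through 10 genes in the growth plate region of Longshanks mice. The genes were chosen by name, *Creb3l2*, *Xbp1*, *Atf4*, *Atf6*, *Ddit3*, *Hspa5*, *Hsp90b1*, *Sec23a*, *Sec24d* and *Mia3*, with earlier results of these data known. They are 10 of the 47729 genes in the deposited table, and all 10 were among the 19308 that passed a filter of 20 reads on average and were tested. The study compared bulk polyadenylated RNA from the proximal tibial epiphyses of 3 LS1 mice and 3 Control mice, all 14 days old, of generation F13 and from different families. LS1 is a Longshanks line selectively bred for long tibiae and Control is the random-bred line of ICR background kept with it, and neither group was treated. Both epiphyses of a mouse were pooled into 1 library, and the tissue ran from the joint surface through the growth plate into the metaphysis, so that cartilage, bone and marrow were measured together. Values are normalized counts, which are reads of a gene divided by a size factor of the library, and fold changes are limma estimates on log2(normalized count + 1), LS1 over Control.

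Chondrocytes secrete very large amounts of collagen and proteoglycan, and these proteins fold and assemble in the ER before they leave it. When unfolded proteins accumulate, sensors in the ER membrane respond. IRE1 (*Ern1*) splices the messenger RNA of *Xbp1*, PERK (*Eif2ak3*) slows translation and thereby favours synthesis of ATF4, and ATF6 travels to the Golgi, where site-1 and site-2 proteases (*Mbtps1*, *Mbtps2*) release its transcription factor part. These factors act on genes for chaperones, degradation and, through *Ddit3* (CHOP), cell death. CREB3L2 (BBF2H7) is released in the same way as ATF6 and is known in chondrocytes as an activator of *Sec23a*, whose product is part of the COPII coat that carries collagen from the ER. Splicing of *Xbp1*, cleavage of ATF6 and CREB3L2 and translation of *Atf4* are not seen in gene counts, so the values below are transcript levels only.

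Recovered reads totalled 68803249 to 76581954 in the Control libraries and 82227711 to 88745366 in the LS1 libraries, so the LS1 libraries were all the deeper ones. LS1 replicate 3 stood apart from the other LS1 libraries on the first principal component (35.1% of variance), at -4.3 against 43.7 and 50.1, while Control libraries lay between -41.5 and -22.1. Y-linked genes were at 2528 or more in 3 libraries, Control replicate 3 and LS1 replicates 1 and 3, and at 55.4 or less in the other 3, so the groups differed in their mix of sexes. Chondrocyte markers were present at high levels, with *Col2a1* between 1344212 and 2086285 normalized counts, and so were markers of osteoblasts and osteoclasts (*Col1a1*, *Ctsk*). Across all tested genes the median log2 fold change of LS1 over Control was 0.005, with the middle of the distribution between -0.21 and 0.22, and 50.7% of genes were above 0.

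None of the 10 genes differed between LS1 and Control at an adjusted p-value under 0.05 (limma, adjusted over all 19308 genes), against 0.0725% of all tested genes. DESeq2 on the recovered reads also called 0 of 10, against 2.36% of all tested genes. With edgeR 0 of 10 were called, against only 7 of all 19308 genes. At an unadjusted p under 0.05, 3 of 10 genes were higher in LS1 (*Xbp1*, *Hspa5* and *Hsp90b1*), against 7.08% of all tested genes, and 0 of 10 were lower, against 5.86%. In 5 of 10 genes (*Xbp1*, *Hspa5*, *Hsp90b1*, *Sec23a* and *Sec24d*) every LS1 library was above every Control library, against 10.3% of all tested genes, and in 0 of 10 the LS1 libraries were all lower, against 8.94%. The median log2 fold change of the 10 genes was 0.25. It was 0.17 without LS1 replicate 1 and 0.34 without LS1 replicate 3. The highest of the 6 libraries was LS1 replicate 1 for 8 of the 10 genes, and the same library was the lowest for the other 2, *Atf4* and *Ddit3*.

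**Figure D1:**
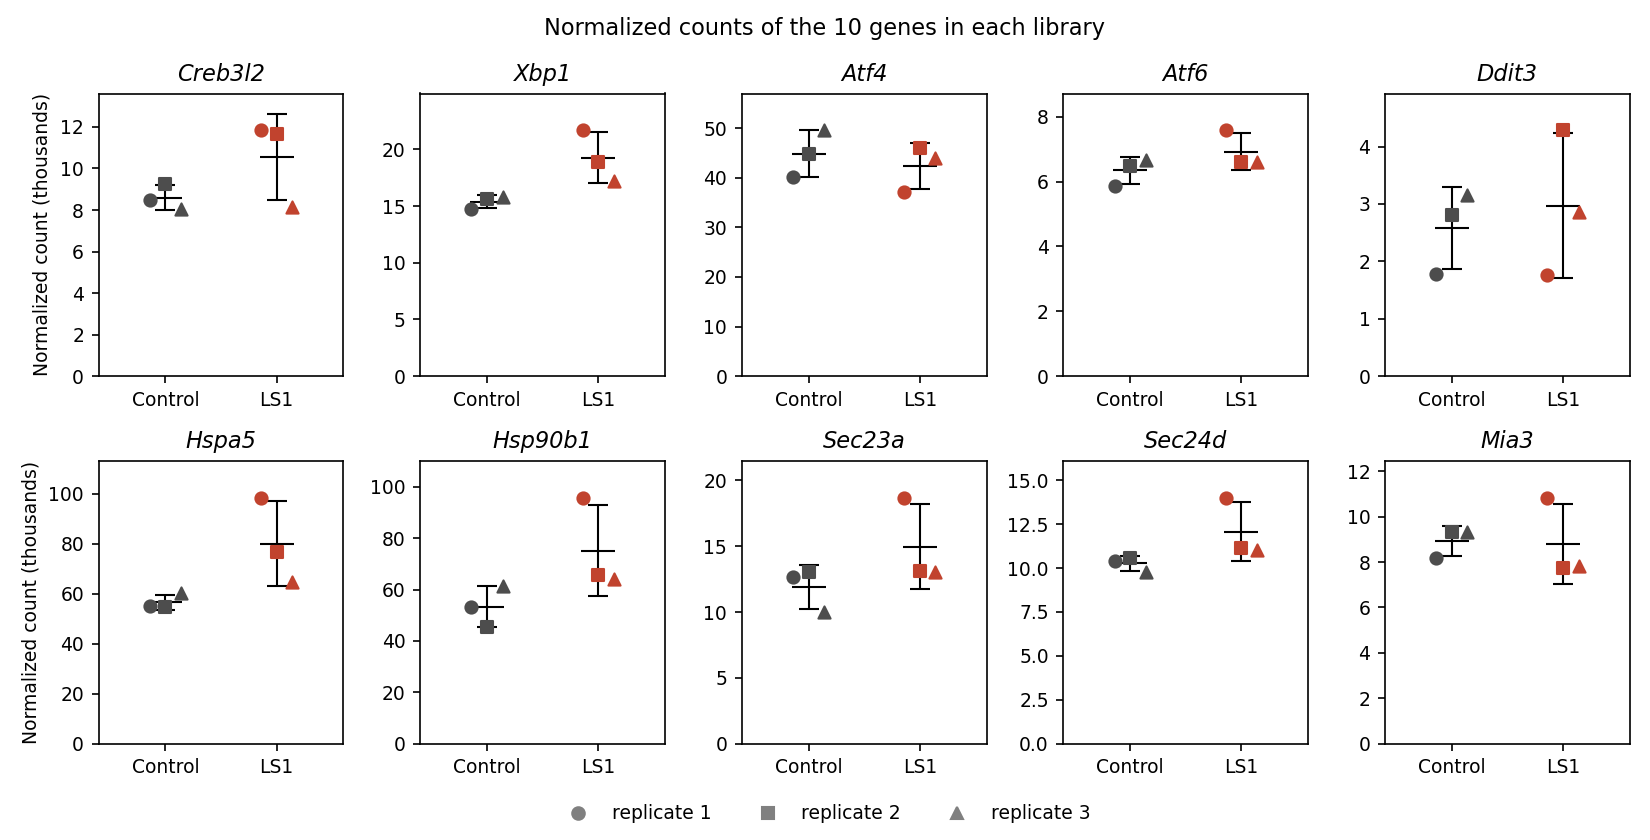
Normalized counts (in units of 1000, axes from 0) of the 10 genes in the 3 Control and 3 LS1 libraries; each symbol is 1 library, and the bar and whiskers give the group mean and SD. *Hspa5* and *Hsp90b1* reached 98278 and 95675 in LS1 replicate 1, while for *Atf4* and *Ddit3* that library was the lowest of the 6.

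The promoters of the chaperones and of the ER exit genes are shown first, because the factors of the unfolded protein response recognise known sequences there. RefSeq promoters on GRCm38.p6, from 250 bases before to 50 bases from the start of transcription, were found for 9 of the 10 genes, all but *Atf6*. They were searched on both strands for the ER stress response element (CCAAT, 9 bases of any kind, then CCACG) and for the UPR element (TGACGTGG or TGACGTGA). The first was in 2 of the 9 promoters, *Hspa5* and *Hsp90b1*, and in 0.119% of 32851 RefSeq promoters. The second was in 3 of the 9, *Hspa5*, *Sec24d* and *Sec23a*, and in 1.12% of all. Stretches of 30 bases around the matches, 5′ to 3′ on the strand of the gene with the matched letters in capitals, were as follows, with the first base of each match counted from the RefSeq start.
Hspa5 ER stress response element, 65 bases before the start, chr2:34772020-34772049 (+): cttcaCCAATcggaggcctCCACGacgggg
Hspa5 UPR element, 157 bases before the start, chr2:34771922-34771951 (+): gggcgtagcaaTGACGTGAgttgcggagga
Hsp90b1 ER stress response element, 212 bases before the start, chr10:86705633-86705662 (-): acaagcCCAATcgcaaggagCCACGcttcg
Hsp90b1 ER stress response element on the opposite strand, 107 bases before the start, chr10:86705527-86705556 (-): gagtgCGTGGtgaggcacgATTGGtgagtt
Sec24d UPR element, 26 bases before the start, chr3:123267459-123267488 (+): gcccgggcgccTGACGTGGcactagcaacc
Sec23a UPR element, at base 7 of the transcript, chr12:59011993-59012022 (-): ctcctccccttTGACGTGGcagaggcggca

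The UPR element TGACGTGG holds CCACG on its other strand, so the searches overlap, and CCACG alone was in 5 of the 9 promoters and in 32.8% of all. A cAMP response element (TGACGTCA) was in 0 of the 9 and 1.79% of all promoters, and a C/EBP-ATF element (TGATGNAA) in 0 of the 9 and 3.97% of all. GENCODE draws the starts of *Hspa5* and *Sec24d* farther out than RefSeq. For this reason 30 of 30 bases of the first *Hspa5* stretch and 30 of the *Sec24d* stretch lie in annotated exons of those genes. For *Sec23a* both give the same start, and 25 bases of its stretch lie in the exon that begins there. The other *Hspa5* stretch and both of *Hsp90b1* have 0 bases in exons and lie upstream. These matches are descriptions of the reference sequence, and binding was not measured.

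The ER chaperones had the largest differences of the 10 genes. *Hspa5* (ENSMUSG00000026864, chr2:34771970-34777547, GRCm38, plus strand) encodes BiP, the HSP70 chaperone of the ER, which also holds the stress sensors inactive. Its normalized count was 54856, 54463 and 60085 in Control replicates 1, 2 and 3, and 98278, 76654 and 64773 in LS1 replicates 1, 2 and 3. The groups did not overlap, but LS1 replicate 3 was closer to the highest Control library than to the other LS1 libraries. The means were 56468 ± 3138 in Control and 79902 ± 16987 in LS1 (SD, n = 3 each), a log2 fold change of 0.48 ± 0.16 (SE, 95% interval 0.13 to 0.83). The difference had an unadjusted p of 0.0122 and an adjusted p of 0.279 with limma, and an adjusted p of 0.128 with DESeq2. The exact permutation test gave 0.1, the smallest two-sided p that 3 against 3 libraries allow.

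*Hsp90b1* (ENSMUSG00000020048, chr10:86690209-86705509, minus strand) encodes GRP94, the HSP90 chaperone of the ER. Normalized counts were 53161, 45470 and 61507 in Control and 95675, 65785 and 64064 in LS1. The groups were again separate, with LS1 replicate 1 far above all others and the other LS1 libraries just above Control replicate 3. LS1 over Control gave a log2 fold change of 0.48 ± 0.18 (SE, 95% interval 0.08 to 0.88), with an adjusted p of 0.310 (limma) and 0.191 (DESeq2). An antisense pseudogene, *1810014B01Rik*, overlaps an exon, at a mean of 239.

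Both chaperones had similar levels. *Hspa5* per *Hsp90b1* was 1.03, 1.20 and 0.977 in Control and 1.03, 1.17 and 1.01 in LS1, so the groups overlapped. Without LS1 replicate 1 the log2 fold changes were 0.32 for *Hspa5* and 0.29 for *Hsp90b1*, and without LS1 replicate 3 they were 0.62 and 0.58. Per kb of exon, both genes were at the 99.0 percentile of all tested genes in Control.

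The transcription factors differed among themselves. *Xbp1* (ENSMUSG00000020484, chr11:5520659-5525893, plus strand) encodes the factor that IRE1 activates, with secretory cells as its best known setting. Its normalized count was 14781, 15616 and 15800 in Control and 21682, 18900 and 17221 in LS1. Every LS1 library was above the narrow Control range. The log2 fold change was 0.32 ± 0.13 (SE, 95% interval 0.03 to 0.60), with an unadjusted p of 0.0326 and an adjusted p of 0.339 (limma).

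*Creb3l2* (ENSMUSG00000038648, chr6:37327255-37442146, minus strand) had 8467, 9237 and 8060 normalized counts in Control and 11836, 11662 and 8139 in LS1. LS1 replicates 1 and 2 were above all Control libraries, whereas LS1 replicate 3 lay inside the Control range. Its log2 fold change was 0.28 ± 0.16 (SE, 95% interval -0.07 to 0.63), with an adjusted p of 0.491 (limma). Without LS1 replicate 3 it was 0.45 with an adjusted p of 0.149, and without LS1 replicate 1 it was 0.18 with an adjusted p of 0.683.

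*Atf6* (ENSMUSG00000026663, chr1:170704674-170867771, minus strand), the membrane-bound sensor and factor, had 5879, 6496 and 6666 in Control and 7582, 6596 and 6604 in LS1. Only LS1 replicate 1 was above the Control range, and the log2 fold change was 0.13 ± 0.13 (SE, 95% interval -0.15 to 0.40, limma adjusted p 0.708). It was 0.06 without LS1 replicate 1.

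*Atf4* and *Ddit3*, both of the PERK branch, had fold changes of opposite sign and overlapping groups. *Atf4* (ENSMUSG00000042406, chr15:80255184-80257541, plus strand) was the most abundant of the 10 genes per kb of exon in Control, at the 99.4 percentile of tested genes. Its normalized count was 40139, 44803 and 49548 in Control and 37224, 46011 and 43904 in LS1, and the groups overlapped. The log2 fold change was -0.08 ± 0.14 (SE, 95% interval -0.39 to 0.23, limma adjusted p 0.842), so that a mean difference of more than 0.23 in favour of LS1 lies outside the interval.

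*Ddit3* (ENSMUSG00000025408, chr10:127290774-127296288, plus strand) was the most variable of the 10 genes. Normalized counts were 1777, 2806 and 3148 in Control and 1762, 4281 and 2864 in LS1, which overlapped fully, with the lowest library and the highest library both in LS1. The coefficient of variation was 27.7% in Control and 42.5% in LS1, and the log2 fold change was 0.15 ± 0.34 (SE, 95% interval -0.63 to 0.93, limma adjusted p 0.883). *Ddit3* shares exon sequence with *Mars*, an antisense gene with a mean of 8356, and the strand setting of the counting is not given in the sources used here, so reads of these genes may not be fully separated. *Ddit3* per 100 *Atf4* was 4.43, 6.26 and 6.35 in Control and 4.73, 9.30 and 6.52 in LS1, and the groups overlapped.

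The ER exit genes encode parts of the COPII pathway. *Sec23a* (ENSMUSG00000020986, chr12:58958383-59012017, minus strand) belongs to the inner coat and is needed for collagen export in cartilage. Its normalized count was 12646, 13037 and 9999 in Control and 18676, 13138 and 13071 in LS1. The groups were separate only by the margin between 13071 and 13037, and LS1 replicate 1 was far above the rest. Its log2 fold change was 0.32 ± 0.17 (SE, 95% interval -0.05 to 0.69, limma adjusted p 0.454), and it was 0.15 without LS1 replicate 1. An antisense gene, *Gm17529*, overlaps an exon at a mean of 56.5.

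*Sec24d* (ENSMUSG00000039234, chr3:123267455-123365641, plus strand) binds cargo in the inner coat. Normalized counts were 10421, 10566 and 9795 in Control and 13993, 11164 and 11002 in LS1, with no overlap and LS1 replicate 1 again the highest. Its log2 fold change was 0.22 ± 0.13 (SE, 95% interval -0.07 to 0.52, limma adjusted p 0.508), and 0.11 without LS1 replicate 1.

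*Mia3* (ENSMUSG00000056050, chr1:183326725-183369553, minus strand) encodes TANGO1, the ER exit receptor for bulky collagen. It had 8158, 9337 and 9309 normalized counts in Control and 10825, 7756 and 7807 in LS1. LS1 replicate 1 was the highest library and LS1 replicates 2 and 3 the lowest. The log2 fold change was -0.04 ± 0.15 (SE, 95% interval -0.38 to 0.30, limma adjusted p 0.942), and -0.20 without LS1 replicate 1.

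**Figure D2:**
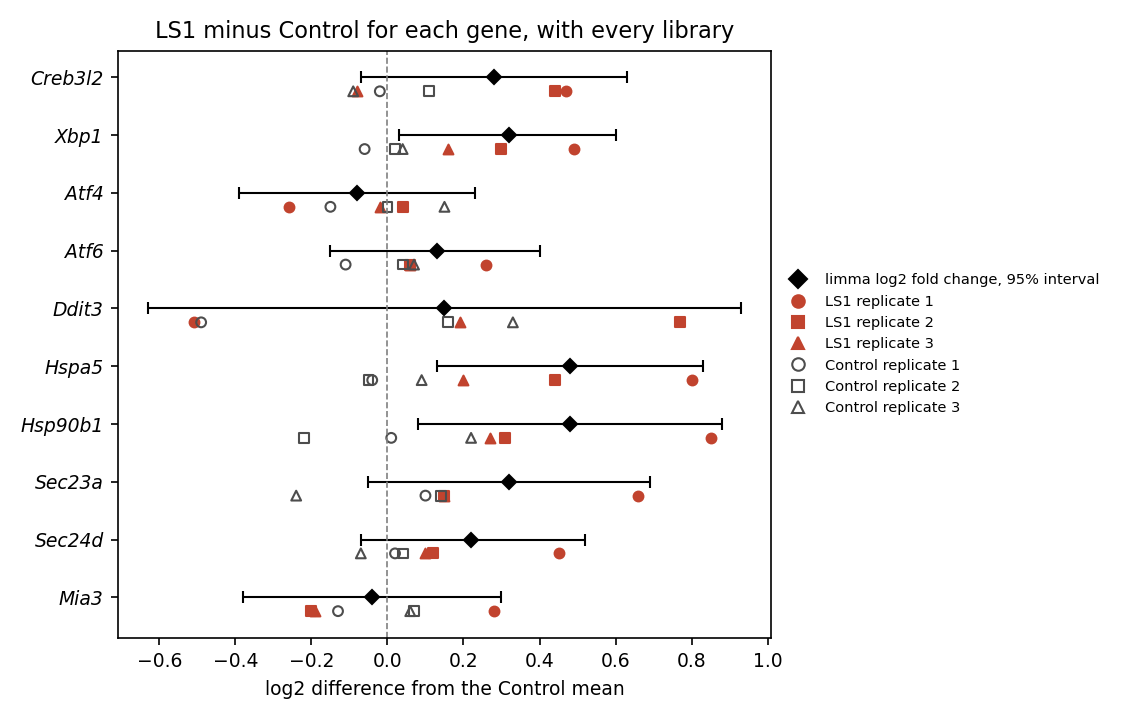
Log2 difference of LS1 from Control for each gene: diamonds with bars are the limma log2 fold change and its 95% interval, red symbols the LS1 libraries and open symbols the Control libraries, each relative to the Control mean. The intervals of *Xbp1*, *Hspa5* and *Hsp90b1* lie above 0, and LS1 replicate 1 is rightmost for 8 genes.

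Libraries with and without Y-linked reads were also compared separately, 1 Control against 2 LS1 libraries with them and 2 Control against 1 LS1 library without them, as a description that was not tested within the splits. *Hspa5* differed by 0.41 on the log2 scale among libraries with Y-linked reads and 0.49 among those without, and *Hsp90b1* by 0.35 and 0.42. The values for *Xbp1* were 0.29 and 0.32. For *Sec23a* they were 0.64 and 0.03, and for *Ddit3* -0.49 and 0.94, so these differed between the splits. *Sec24d* (0.34 and 0.09) and *Atf4* (-0.29 and 0.12) also differed between them. *Creb3l2* was at 0.28 and 0.4, *Atf6* at 0.09 in both and *Mia3* at -0.02 and -0.17. Each split had 1 group of 1 library, so sex cannot be told apart from differences of single libraries. With Y-linked level as a covariate in limma the log2 fold change was 0.45 for *Hspa5* and 0.39 for *Hsp90b1*, and neither passed the adjusted threshold.

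Paralogs of the factors and coat genes were compared as shares of their family per kb of exon, since raw counts grow with transcript length. *Sec23a* took 72.0 ± 1.9% of the *Sec23* pair in Control and 74.1 ± 3.1% in LS1 (SD, n = 3 each), with overlapping libraries. Among the *Sec24* genes, *Sec24c* held the largest share in Control at 43.3 ± 1.4%, ahead of *Sec24d* at 33.9 ± 0.5%. In LS1 these shares were 39.7 ± 4.9% and 37.0 ± 3.6%, and in LS1 replicate 1 *Sec24d* at 40.5% was above *Sec24c* at 34.3%. *Creb3l2* held 14.2 ± 2.3% of the OASIS family in Control and 16.7 ± 4.2% in LS1, behind *Creb3l1* (OASIS, known in osteoblasts) at 58.9 ± 6.0% and 61.7 ± 3.3%. *Atf6* and *Atf6b* were near parity, with *Atf6* at 46.8 ± 2.9% in Control and 48.0 ± 8.5% in LS1. For none of *Sec23b*, *Sec24a*, *Sec24b*, *Sec24c*, *Mia2*, *Atf6b*, *Creb3*, *Creb3l1*, *Creb3l3* and *Creb3l4* were the LS1 and Control libraries separate, and limma log2 fold changes ran from -0.44 (*Creb3l4*) to 0.21 (*Sec24a*).

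**Figure D3:**
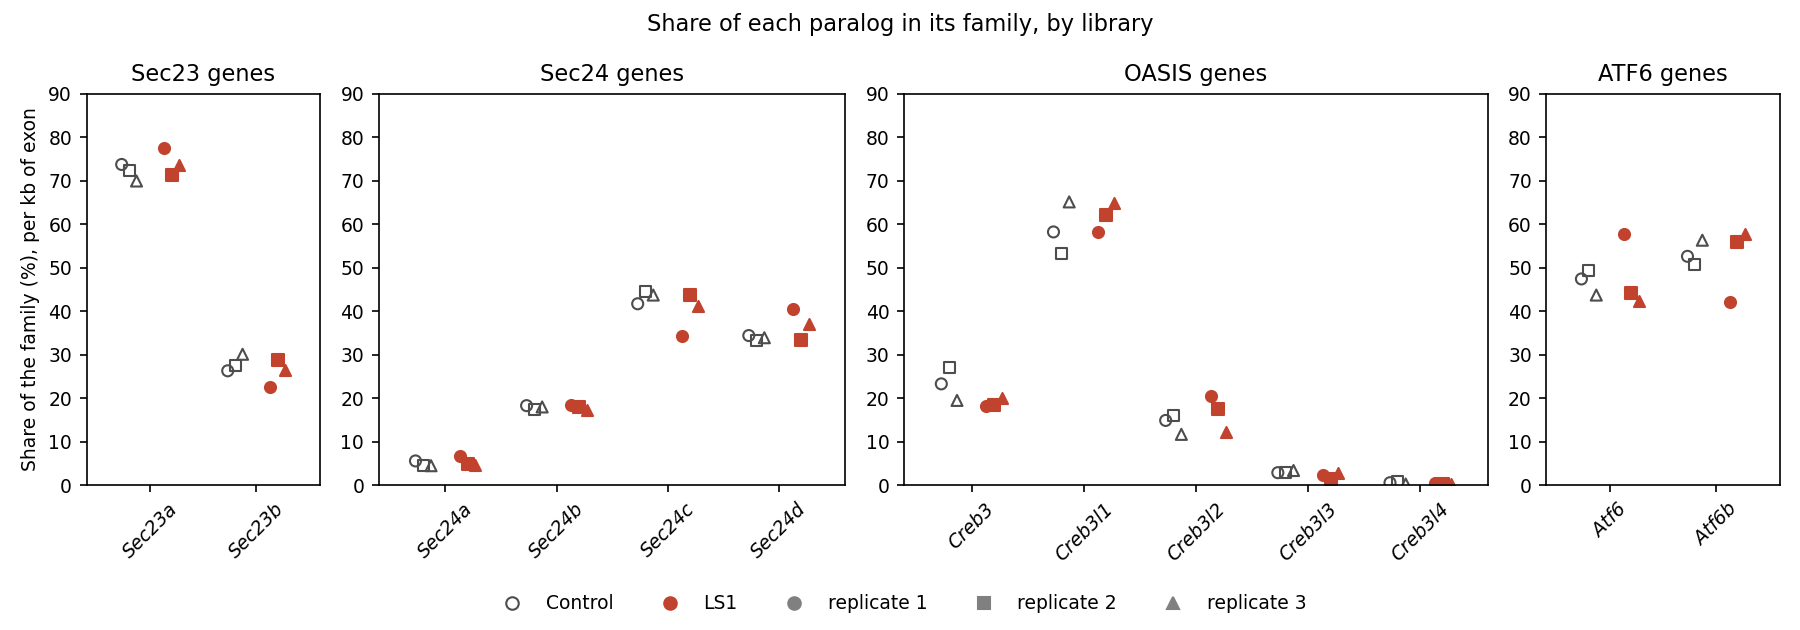
Share (%) of each paralog in its family per kb of exon, with open symbols for the 3 Control and red symbols for the 3 LS1 libraries. *Sec23a* takes between 69.9% and 77.4% of its pair, and *Sec24d* reaches 40.5% in LS1 replicate 1.

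The rest of the pathway was read from lists of 153 genes, all of which were tested and none of which passed the adjusted threshold with limma. These lists, too, were chosen with earlier results of these data known, so their shares beside those of all genes are descriptions. Leaving out 16 genes of secreted cartilage cargo, 95 of the other 137 genes had a log2 fold change above 0, with a median of 0.11, beside 50.7% and 0.005 over all tested genes. Of these 137, 24 were higher at an unadjusted p under 0.05 and 0 lower, which was 17.5% beside 7.08% of all tested genes. Every LS1 library was above every Control library in 33 of them, which was 24.1% beside 10.3%. DESeq2 called 1 of the 137, *Pdia3*, beside 2.36% of all tested genes, so its calls were not more frequent here.

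Genes that act beside *Hspa5* and *Hsp90b1* in folding had the highest list medians outside cargo. Of 12 other ER chaperones and co-chaperones, 10 had values above 0 (median 0.28), and 4 of the 12 (33.3%, beside 7.08% of all tested genes) had an unadjusted p under 0.05, all with separate groups, *Dnajb9*, *Dnajc3*, *Sil1* and *Creld2* (*Dnajb9* and *Sil1* are named after their values were seen). *Dnajb9* was separate only by the margin between 2459 in LS1 replicate 3 and 2440 in Control replicate 1. *Creld2* was at 5652, 4726 and 5131 in Control and 7147, 6429 and 6462 in LS1 (log2 fold change 0.37 ± 0.13, limma adjusted p 0.285). LS1 replicate 1 was again the highest library, and all LS1 libraries were above the Control range. Of 10 disulfide isomerases and oxidases, 9 had values above 0 (median 0.26), and in 6 of the 10 LS1 lay above Control without overlap (60.0%, beside 10.3% of all tested genes). *Pdia3*, the isomerase ERp57 that works on glycoproteins, had 51668, 49383 and 58469 in Control and 96381, 77395 and 66305 in LS1. Its log2 fold change was 0.58 ± 0.16, with an adjusted p of 0.227 (limma) and 0.0463 (DESeq2). *Pdia4* was at 0.55 ± 0.15, with an adjusted p of 0.220 (limma) and 0.0591 (DESeq2).

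The ER stress response element was found in 8 of the 127 pathway genes with a RefSeq promoter, *Calr*, *Canx*, *Dnajc3*, *Creld2*, *Pdia6*, *Ero1b*, *Syvn1* and *Derl3*, named here for the match and not for their values. In *Dnajc3*, *Creld2* and *Pdia6* the groups were separate, as in *Hspa5* and *Hsp90b1*, and in the other 5 they overlapped. Over all tested genes, every LS1 library was above every Control library in 10.3%. A link between the element and these values was not tested. *Syvn1*, the ubiquitin ligase HRD1 of ER-associated degradation, was at -0.23, and the lectin chaperones *Calr* and *Canx* were at 0.33 and 0.29. The UPR element was also in 8 of the 127.

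Of the 5 listed sensors and activating enzymes 4 were above 0, with a median of 0.11, or 0.23 without LS1 replicate 1. *Ern1* had a log2 fold change of 0.18 ± 0.18 and *Eif2ak3* of 0.11 ± 0.12, with limma adjusted p of 0.699 and 0.723. *Eif2ak3* was at 4640, 4593 and 4403 in Control and 5100, 4820 and 4826 in LS1, so its groups were separate by a small margin. *Mbtps1* was at -0.06 ± 0.13, and *Mbtps2* at 0.44 ± 0.19 with separate groups (limma adjusted p 0.349). *Mbtps2* was at 1818, 1774 and 1776 in Control and 3252, 2011 and 2183 in LS1, so LS1 replicate 1 stood well above the other LS1 libraries.

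Lists for entry into the ER, glycosylation and degradation had medians between that of the chaperones and that of all genes. The median log2 fold change was 0.20 for 9 oligosaccharyltransferase genes (6 above 0, and 0.13 without LS1 replicate 1), 0.10 for 17 translocon, signal peptidase and SRP receptor genes (12 above 0) and 0.09 for 14 genes of ER-associated degradation (11 above 0, and 0.14 without LS1 replicate 3). The lowest p-values in these lists belonged to *Stt3a* (0.39 ± 0.14) and *Tusc3* (0.48 ± 0.17), *Ssr3* (0.46 ± 0.15) and *Sec61b* (0.48 ± 0.18), and *Sel1l* (0.39 ± 0.15) and *Edem1* (0.31 ± 0.13). Groups were separate in each, but these genes were picked for their p-values. Over the whole lists, in the same order, every LS1 library was above every Control library in 3 of 9 (33.3%), 5 of 17 (29.4%) and 3 of 14 (21.4%). The share over all tested genes was 10.3%. Around *Sec23a*, *Sec24d* and *Mia3*, the 24 other COPII and ER exit genes had a median of 0.08, and 14 were above 0; the median was 0.03 without LS1 replicate 1. Groups were separate in 3 of these 24, with *Sar1a* and *Mcfd2* higher in LS1 and *Gosr2* lower; *Sar1a* and *Gosr2* are named after their values were seen. The 2 higher genes made up 8.3%, beside 10.3% of all tested genes, so this count was near the background, as was the 1 lower gene beside 8.94%. The smallest p of the list was that of *Bet1*, a vesicle fusion protein, at 0.42 ± 0.19 with overlapping groups (limma adjusted p 0.386). The retrograde COPI and KDEL receptor genes had a median of 0.13 (12 of 14 above 0), led by *Kdelr2* at 0.37 ± 0.12 (limma adjusted p 0.281), followed by *Trip11* at 0.28 ± 0.14 with overlapping groups (limma adjusted p 0.445).

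Targets of ATF4 and CHOP had values of both signs. Of 22 such genes, 13 had values above 0 with a median of 0.05, which was 0.14 without LS1 replicate 1 and 0.10 without LS1 replicate 3. At an unadjusted p under 0.05, 4 of the 22 were higher (18.2%, beside 7.08% of all tested genes) and 0 lower. In 5 (*Atf3*, *Trib3*, *Slc7a11*, *Vldlr* and *Cebpb*) all LS1 libraries were above Control, which was 22.7% beside 10.3%. Values ran from -0.51 (*Ppp1r15a*) to 1.54 (*Trib3*), and *Atf3*, *Cebpb*, *Ppp1r15a* and *Trib3* are named after their values were seen. *Trib3* had 274, 1198 and 924 in Control and 1338, 3806 and 1472 in LS1, and Control replicate 1 alone was far below the others. *Slc7a11* was at 0.54 ± 0.21 and *Vldlr* at 0.45 ± 0.17, both with separate groups and limma adjusted p of 0.313 and 0.317. Of 6 ER stress cell death genes 3 were above 0, with a median of 0.05 that was 0.27 without LS1 replicate 1 and -0.01 without LS1 replicate 3. *Tnfrsf10b*, a death receptor, was at 0.58 ± 0.21 with separate groups (limma adjusted p 0.303). *Casp12* was at 0.78 ± 0.37 with a 95% interval of -0.06 to 1.62 (limma adjusted p 0.418), and LS1 replicate 3 at 616 lay inside its Control range of 542 to 811.

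**Figure D4:**
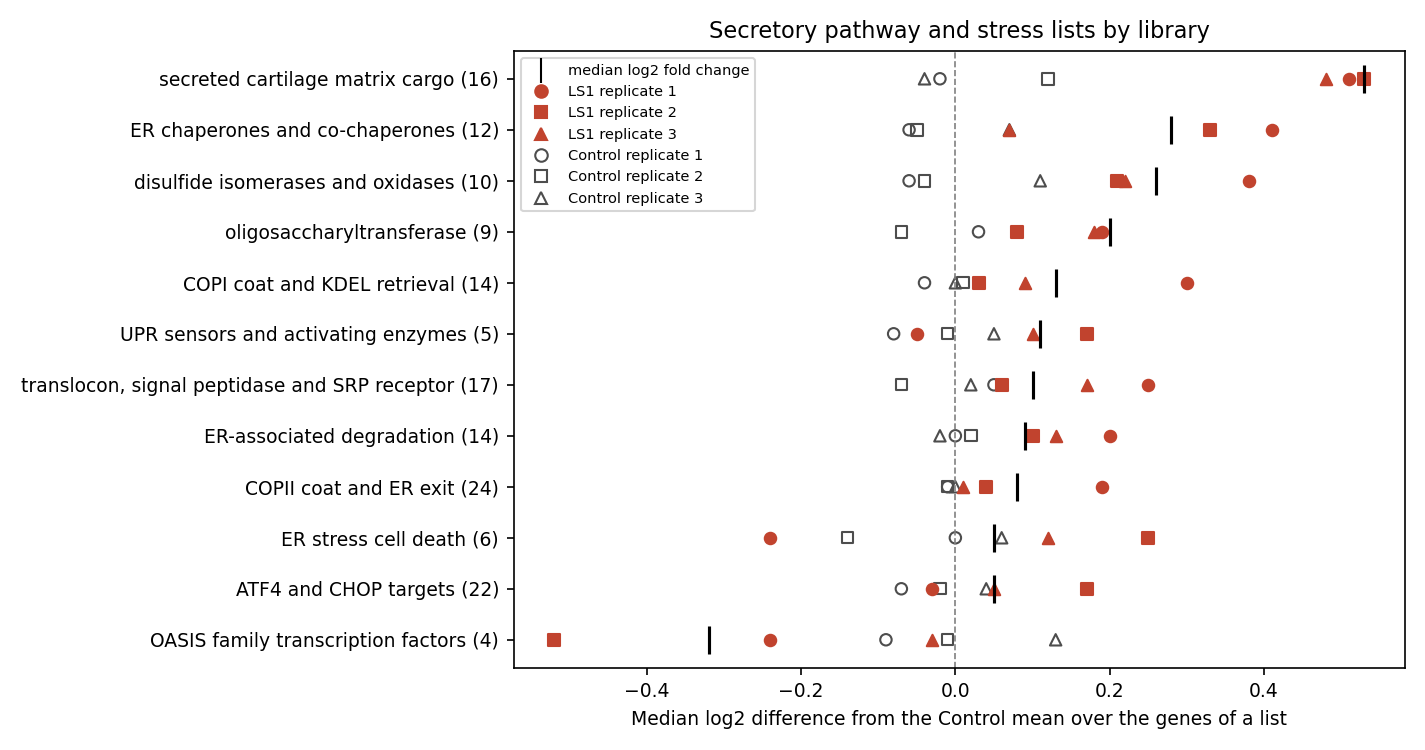
Median log2 difference from the Control mean over the genes of each list (number of genes in parentheses), by library; open symbols are Control, red symbols LS1, and the black bar is the median log2 fold change of the list. Cargo lies farthest right with a median of 0.53, and the ATF4 and CHOP targets are at 0.05.

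The cartilage cargo of this pathway had the highest median of the lists. Of 16 secreted cartilage matrix genes 14 had values above 0, with a median log2 fold change of 0.53. In 10 of the 16 every LS1 library was above every Control library, which was 62.5% beside 10.3% of all tested genes. This list was chosen with earlier results of these data known, so the comparison is not independent support. The 16 genes made up 3.83%, 4.43% and 3.96% of all normalized counts in Control and 5.07%, 5.68% and 5.0% in LS1, with no overlap. *Col2a1* alone made up 1.74%, 2.08% and 1.93% in Control and 1.88%, 2.7% and 2.21% in LS1. Its groups overlapped, with a log2 fold change of 0.24 ± 0.16 (limma adjusted p 0.557). DESeq2 called 8 of the 16, beside 2.36% of all tested genes, and limma called 0. *Col9a1* had a log2 fold change of 0.72 ± 0.14 (adjusted p 0.125 with limma and 0.00135 with DESeq2) and *Matn1* of 0.64 ± 0.13 (0.142 and 0.00489).

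Relative to this cartilage cargo, the levels of the chaperones overlapped between the groups. *Hspa5* and *Hsp90b1* together came to 36.5, 29.6 and 39.3 per 1000 counts of cargo in Control and to 48.8, 32.5 and 33.1 in LS1. LS1 replicate 1 was the highest, and LS1 replicates 2 and 3 lay inside the Control range. *Col1a1*, the osteoblast marker named above, is not in this cargo list. It was at 2016431, 2032518 and 2495226 in Control and 1995102, 1778579 and 1953114 in LS1, every LS1 library below every Control library. Its log2 fold change was -0.19 ± 0.15 (limma adjusted p 0.616), and the chaperones were not set against it.

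Marker lists of the cell types in this tissue are given beside these values. Of 12 chondrocyte markers, which share most genes with the cargo list, 12 had values above 0 (median 0.53), and their summed level ran from 2327290 to 2638723 in Control libraries and from 3010292 to 3506152 in those of LS1. Osteoblast and osteocyte markers were above 0 in 6 of 10 (median 0.05), with sums of 2367879 to 2884000 in Control and 2131528 to 2381245 in LS1. Hypertrophic chondrocyte markers were above 0 in 3 of 5 (median 0.34, or 0.17 without LS1 replicate 3, sums 734156 to 1097299 and 931828 to 1059911), with *Mmp13* the most abundant over the 6 libraries at -0.37 ± 0.21. In LS1 the mean of *Col10a1* (523666) was above that of *Mmp13* (394386). *Col10a1* was at 0.61 ± 0.13 with separate groups (adjusted p 0.158 with limma and 0.00371 with DESeq2). *Panx3* was at 0.47 ± 0.15, also with separate groups, *Ihh* at 0.34 ± 0.22 and *Pth1r* at -0.08 ± 0.16. These markers beside *Mmp13* are named after their values were seen. Osteoclast markers were above 0 in 4 of 7 (median 0.03, sums 449055 to 568987 and 386782 to 613125). Of 8 erythroid markers 0 were above 0 (median -0.52), with sums of 459467 to 650409 in Control and 252115 to 439918 in LS1, and of 10 B cell markers 1 was above 0 (median -0.47), with sums of 55902 to 58727 and 33649 to 51434. The most abundant erythroid marker, *Slc4a1*, was at -0.52 ± 0.23, and that of B cells, *Cd79a*, at 0.01 ± 0.16. Muscle markers were above 0 in 0 of 7 (median -0.68, but -0.09 without LS1 replicate 1), with sums of 6451 to 16982 in Control and 3444 to 9711 in LS1. Macrophage markers were above 0 in 8 of 9 tested (median 0.28, sums 36193 to 51926 and 49007 to 68249), and neutrophil markers in 9 of 10 (median 0.19, or 0.09 without LS1 replicate 3, sums 261987 to 366621 and 332050 to 388210). Plasma cells, which also express *Xbp1* and ER chaperones strongly, had marker sums between 17716 and 19926 in Control and between 17727 and 22153 in LS1, and 2 of the 5 tested markers were above 0 (median -0.54), with *Sdc1* the most abundant at 0.24 ± 0.17. *Sdc1* alone was at 10568 to 16801 in the 6 libraries, which was most of these sums. Of the other tested markers, *Prdm1* was at 0.20 ± 0.19. Below 0 were *Mzb1* (-0.54 ± 0.21, every LS1 library below every Control library), *Irf4* (-0.60 ± 0.21) and *Jchain* (-0.93 ± 0.65). *Prdm1*, *Mzb1*, *Irf4*, *Jchain* and *Tnfrsf17* are named after the values were seen, *Tnfrsf17* and *Jchain* as defining markers. *Tnfrsf17*, which was not tested, was at 1.01 to 18.8 in the 6 libraries and *Jchain* at 137, 446 and 184 in Control and 241, 47.9 and 138 in LS1. Interferon-stimulated genes were above 0 in 10 of 10 with a median of 1.83, and their sums ran from 9726 to 17120 in Control and from 12433 to 45091 in LS1. LS1 replicate 3 was near the Control level of these genes, with a median log2 difference of 0.05 against 2.11 and 3.29 in replicates 1 and 2, and without it the median fold change was 2.82 on the log2 scale. In bulk tissue, more cells of a type and more RNA per cell cannot be told apart, and the part of cell composition, sequencing depth or sex in the values of the 10 genes was not tested.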

How the data were processed

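Per the labels and the methods of the study, reads were aligned to GRCm38 by HISAT2 2.0.2, and featureCounts 1.4.6 gave counts per gene, which the authors examined in DESeq2. Deposited values are a signal per gene, these counts over the size factor of each library, and 0 columns were unused. Division by the value of 1 read (0.8702 to 1.1086) recovered the reads, with 100% of values whole within 0.01. For Control replicate 1 this value (1.009) was too near 1 to separate recovered reads from rounded values.

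A gene was tested if it averaged 20 or more recovered reads. The test was limma 3.58.1 (R 4.3.3) after log2 transformation with a pseudocount of 1, using a mean-variance trend, robust moderation and Benjamini-Hochberg adjustment at 0.05. This scale understates the fold changes of low genes. The 17 alternatives included edgeR 4.0.16 and DESeq2 1.42.0 on recovered reads, and the code was tested on simulated data. Symbols and coordinates came from GENCODE M21 (99.1% of identifiers matched), another annotation release than that of the authors. The rule for names took the members, their paralogs, the sensors, the 2 smallest p-values of each list and the most abundant marker of each cell type. Not every such marker is printed, and the adipocyte and endothelial lists are left out. Genes outside the rule are said to be so or are named for a motif, an overlap or a count. Members and lists were chosen with earlier results of these data known.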

Additional observations from a re-analysis of the deposited data

How the results depend on the processing

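The number of the 10 genes called was 0 under all 17 alternatives, and their smallest adjusted p was 0.0812 (*Hspa5* without LS1 replicate 3, limma). Over 170 pairs of gene and alternative, 165 kept direction and side of the threshold. The other 5 turned in sign when 1 library was left out: *Atf4* reached 0.009, *Ddit3* went down to -0.156 and *Mia3* up to 0.044, from values already near 0, and the cause was not tested. Across all genes, 14 were called by limma, 7 by edgeR, 456 by DESeq2, 45 with no filter, 9 with a filter at a mean of 100 reads, 7 without robust moderation, and 5 to 324 with 1 library left out, the highest without LS1 replicate 3. Among the 153 pathway genes, where limma called 0, DESeq2 called 9, no filter 3, and leaving out 1 library 0 to 5; the cause was not tested. The ranges over left-out libraries were -0.16 to 0.01 for *Atf4*, -0.16 to 0.48 for *Ddit3* and -0.20 to 0.04 for *Mia3*. Correlations of deviations were 0.05, 0.02 and 0.22 for libraries with the same title letter, and -0.15 to 0.12 for the other pairs. With 3 libraries per group they cannot decide whether the letters pair the samples. With these letters as a replicate block 12 genes and 0 of the 10 were called. The smallest adjusted p of the 10 was then 0.17 (*Hspa5*, limma), against 0.279 without the block. The median log2 fold change of all genes stayed within 0.017 of 0 in each setting. With 3 mice per group, the intervals of the members leave room for differences the test would miss.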
